A study of Mus musculus with 12 samples.

Results

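The interferon-stimulated genes described here were the 80 of 15687 genes whose symbols carry the family names of interferon-induced genes and of the factors that drive them: the Stat factors, the numbered Irf, Ifit, Ifitm, Ifi, Oas and Gbp genes, the immunity-related GTPases Irgm1, Irgm2, Iigp1 and Igtp, and the single genes Isg15, Isg20, Mx1, Mx2, Rsad2, Usp18, Bst2, Zbp1, Ddx58, Ifih1, Rtp4, Xaf1 and Cmpk2. The rule used names alone, and it was set with earlier results of these data known. Of these, 4 genes (*Irf2bp1*, *Irf2bp2*, *Irf2bpl* and *Isg20l2*) matched by their letters only and are kept apart below. A further 9 annotated symbols of the same form, among them *Ifi44l*, *Ifitm7* and *Oas1h*, were not analysed here. Expression was measured by bulk RNA sequencing in 12 subcutaneous tumors of mTc11, a mouse lung cancer cell line. The CTL tumors (n = 6) came from cells carrying a control hairpin (shControl), and the *Filip1l*-knockdown tumors (n = 6) from cells carrying an shRNA against *Filip1l*. All 12 shared the same host and handling: 1000000 cells in Matrigel under the skin of male C57BL6/J mice aged 8 weeks, with tumors taken on day 24. The knockdown cells were puromycin-selected mixed clones, made in the study with 2 hairpin sequences, and which of these the sequenced tumors carried is not given in the sources used here. In addition, the hosts had an intact immune system, and each tumor is a separate biological replicate of the graft. The tests below measure the spread between tumors and not between separately made cell populations. Other differences between the CTL and knockdown cells therefore cannot be told apart from the knockdown.

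Interferons are secreted alarm signals against viruses and tumors. Type I interferons bind IFNAR1 and IFNAR2 and, through the kinases JAK1 and TYK2, assemble a complex with STAT2 and IRF9 that binds the interferon-stimulated response element (ISRE). Interferon gamma acts through IFNGR1, IFNGR2, JAK1 and JAK2 on factors that bind the gamma-activated site (GAS). The genes they switch on block viral entry, translation and RNA, coat the vacuoles of intracellular pathogens, and amplify the signal itself. Many respond to both kinds of interferon.

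Promoter sequence was examined first, because the rule used names and not sequence. RefSeq promoter windows of 300 bases (250 before and 50 after the start, GRCm38.p6) were matched to 59 of the 80 genes, giving 71 windows. The ISRE core GAAANNGAA, searched on both strands, lay in 36 of these windows (50.7%) and in 8.56% of all 32851 windows. The GAS motif TTCNNNGAA, which reads the same on both strands and can overlap the ISRE core, lay in 16 windows (22.5%) and in 8.30% of all windows. By gene, the ISRE core was found in 35 of 59, including 5 of 5 guanylate-binding proteins with a window, 5 of 6 IFIT genes, 7 of 9 HIN-200 genes and 4 of 6 OAS genes, and in 2 of 9 STAT and IRF factors. The following 6 windows are shown because their genes represent the main patterns below. Capitals mark every match to either motif.
Isg15: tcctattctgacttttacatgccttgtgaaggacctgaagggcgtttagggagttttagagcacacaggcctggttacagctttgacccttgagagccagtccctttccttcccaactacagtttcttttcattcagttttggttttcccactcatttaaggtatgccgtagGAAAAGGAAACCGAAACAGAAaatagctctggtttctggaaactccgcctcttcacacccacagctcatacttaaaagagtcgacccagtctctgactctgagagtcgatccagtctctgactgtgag
Oas3: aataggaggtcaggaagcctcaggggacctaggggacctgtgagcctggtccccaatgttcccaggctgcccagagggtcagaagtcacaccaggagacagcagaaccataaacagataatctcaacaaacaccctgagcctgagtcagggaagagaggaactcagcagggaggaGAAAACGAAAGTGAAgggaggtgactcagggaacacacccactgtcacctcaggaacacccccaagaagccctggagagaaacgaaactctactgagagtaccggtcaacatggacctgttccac
Rsad2: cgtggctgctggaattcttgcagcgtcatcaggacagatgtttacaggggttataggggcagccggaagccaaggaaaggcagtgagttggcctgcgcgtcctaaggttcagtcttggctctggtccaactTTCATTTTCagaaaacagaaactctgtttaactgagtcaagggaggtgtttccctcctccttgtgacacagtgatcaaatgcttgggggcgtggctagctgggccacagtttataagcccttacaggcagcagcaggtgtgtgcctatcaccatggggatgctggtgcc
Igtp: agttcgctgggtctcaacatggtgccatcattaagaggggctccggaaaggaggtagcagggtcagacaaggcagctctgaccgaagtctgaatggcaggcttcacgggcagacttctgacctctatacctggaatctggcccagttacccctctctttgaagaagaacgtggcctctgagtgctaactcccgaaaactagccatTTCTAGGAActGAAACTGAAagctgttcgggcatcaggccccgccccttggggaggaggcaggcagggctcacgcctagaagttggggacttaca
Gbp7: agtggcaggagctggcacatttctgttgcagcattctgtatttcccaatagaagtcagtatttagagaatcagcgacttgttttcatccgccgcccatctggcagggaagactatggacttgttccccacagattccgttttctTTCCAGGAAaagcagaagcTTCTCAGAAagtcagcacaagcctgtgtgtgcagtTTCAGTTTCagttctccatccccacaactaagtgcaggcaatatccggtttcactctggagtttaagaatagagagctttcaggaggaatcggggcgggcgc
Ifitm1: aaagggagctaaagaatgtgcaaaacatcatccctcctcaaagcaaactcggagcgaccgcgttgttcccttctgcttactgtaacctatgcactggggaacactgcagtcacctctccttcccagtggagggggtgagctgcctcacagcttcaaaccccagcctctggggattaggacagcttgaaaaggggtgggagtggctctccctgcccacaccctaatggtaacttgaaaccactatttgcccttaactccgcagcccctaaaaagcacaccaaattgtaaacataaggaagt
The *Isg15* window (chr4:156200769-156201068, minus strand) held 3 overlapping ISRE cores and that of *Oas3* (chr5:120777610-120777909, minus strand) held 2. *Rsad2* (chr12:26456403-26456702, minus strand) had a single core on the opposite strand. In *Igtp* (chr11:58199306-58199605, plus strand) a GAS match stood directly before an ISRE core, and *Gbp7* (chr3:142530086-142530385, plus strand) carried 2 GAS matches and an ISRE core. Neither motif was found in the *Ifitm1* window (chr7:140967826-140968125, plus strand). This window lies inside the annotated gene (chr7:140967221-140969825), so sequence before the annotated start of *Ifitm1* was not searched. Among genes with a window, the ISRE core was found in 12 of 24 that were higher in knockdown tumors, in 1 of 3 that were lower and in 22 of 32 that were neither. These matches describe letters in a window and no binding was measured.

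In *Filip1l*-knockdown tumors a subset of the interferon-stimulated genes was expressed at higher levels. It included antiviral OAS, MX and IFIT genes, *Isg15* and *Irf7*, but no gene of the guanylate-binding proteins or immunity-related GTPases. Values below are normalized counts, that is, reads per gene divided by the tumor's DESeq2 size factor. A log2 fold change is the difference of mean log2 (normalized count + 1), knockdown minus CTL, tested with limma and adjusted over all genes. At an adjusted p under 0.05, 31 of the 80 genes were higher in knockdown tumors (21.1% of all genes were) and 4 were lower (20.7% of all genes were). Of them, 12 were higher by over 2-fold (6.20% of all genes) and 2 were lower by over 2-fold (3.97% of all genes). All 6 knockdown tumors lay above all 6 CTL tumors for 16 genes (10.6% of all genes) and below them for 3 (10.9% of all genes). The median log2 fold change was 0.24 over the 80 genes and 0.01 over all genes. Without the 4 genes matched by letters only, 31 of 76 were higher and 3 lower. The shares of all genes, 21.1% higher and 20.7% lower, are the background for the counts per family and list below. In bulk tumors, fewer cells of a type and less RNA per cell cannot be told apart, nor can reads of the mouse tumor cells from those of the mouse host.

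**Figure D1:**
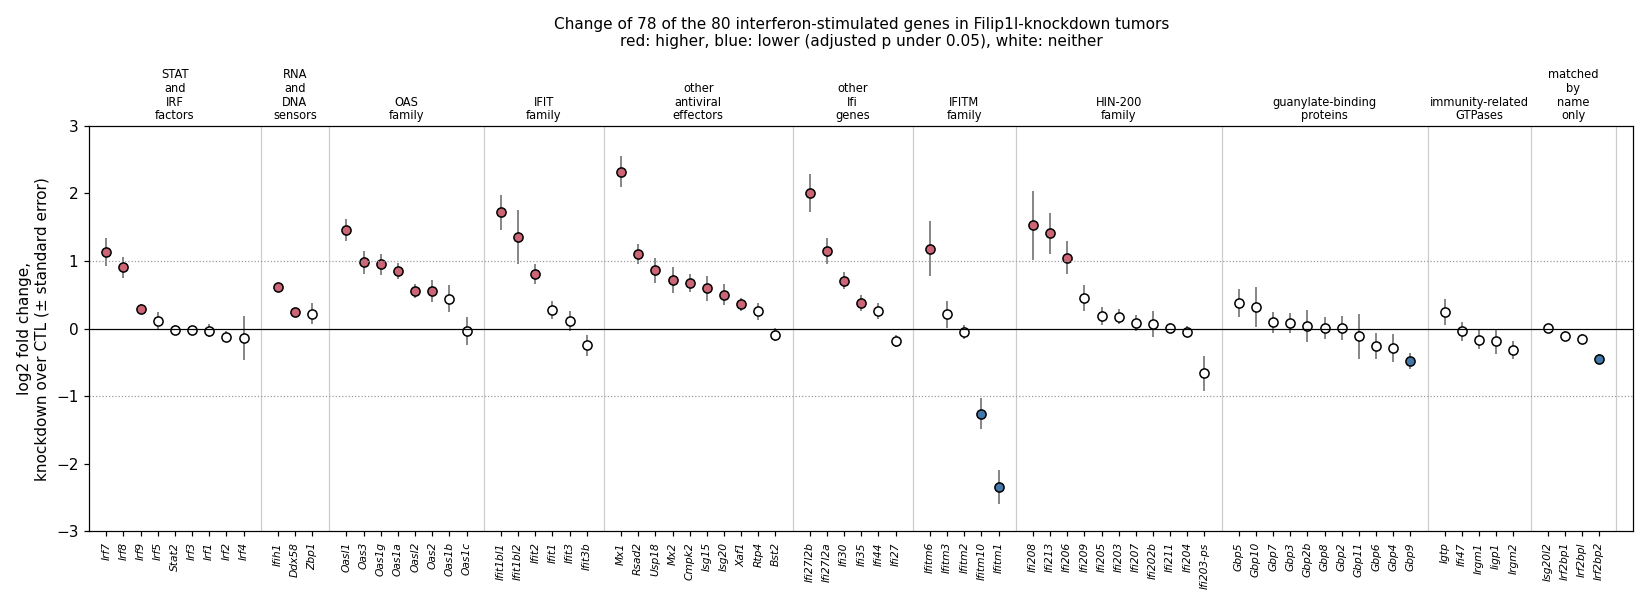
Log2 fold change (knockdown over CTL, y axis, with standard error as bars) of 78 of the 80 genes, grouped by family along the x axis; red points were higher, blue points lower and white points neither at an adjusted p under 0.05, and dotted lines mark 2-fold. *Mx1* (2.32) and *Ifi27l2b* (2.00) stand highest and *Ifitm1* (-2.34) lowest, and no guanylate-binding protein or immunity-related GTPase is red.

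In bulk tumor RNA, the targeted gene itself was only modestly reduced. The study assessed the knockdown as protein, by immunoblot of the cells, and reported lower FILIP1L staining in knockdown tumors. *Filip1l* ranged from 1983 to 2542 with a median of 2354 in CTL tumors and from 1670.1 to 2184 with a median of 1935 in knockdown tumors. Its values overlapped between the groups and were lower on average in knockdown tumors (log2 fold change -0.26 ± 0.07 (SE), adjusted p = 0.00998, exact permutation p = 0.00649). Sequencing depth was 17834745 to 32419578 reads on listed genes per tumor, and CTL replicate 5 was the shallowest. The epithelial markers of the tumor cells were present in every library, and 5 of 6 were higher in knockdown tumors (*Krt8*, *Krt18*, *Krt19*, *Epcam* and *Cldn7*, but not *Cdh1*). In addition, 7 of 8 skeletal muscle genes, 5 of 6 neutrophil genes and 4 of 5 endothelial genes were higher. None of 4 general leukocyte genes, 10 T and NK cell genes or 6 dendritic cell genes passed the limma test. Among macrophage genes 1 of 10 was higher, and among fibroblast genes 2 of 6 were lower. Of 4 listed B cell genes only *Cd79b* was analysed here. It was higher at a low level (means of 21.6 in CTL and 43.2 in knockdown tumors, log2 fold change 1.01, limma adjusted p = 0.0115). The part of these cell-type differences in the results below was not tested.

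Among the 11 STAT and IRF factors, 4 were higher in knockdown tumors (36.4%, against 21.1% of all genes) and none was lower. *Irf7* (chr7:141262706-141266481), the factor that amplifies type I interferon production, ranged from 1344 to 3318 with a median of 1956 in CTL tumors and from 3065 to 5689 with a median of 4629.5 in knockdown tumors. Only the lowest knockdown tumor, replicate 1, fell below the highest CTL tumor, replicate 5, and the mean was 2.16-fold higher (log2 fold change 1.14 ± 0.20 (SE), adjusted p = 0.000486, exact permutation p = 0.00433). *Irf8* (chr8:120736358-120756694), a factor of myeloid and dendritic cell development, ranged from 1185 to 1794 with a median of 1318 in CTL tumors and from 1841 to 3393 with a median of 2775 in knockdown tumors. The groups did not overlap, although knockdown replicates 4 and 5 were the lowest of their group (log2 fold change 0.91 ± 0.15 (SE), adjusted p = 0.000291, exact permutation p = 0.00216). The summed macrophage markers covered 16734.5 to 23164 in CTL and 14659 to 27098 in knockdown tumors, and of their 10 genes *Cd68* passed the test (0.36, limma adjusted p = 0.0401). The summed dendritic cell markers were 214 to 351 in CTL tumors, 149 and 226 in knockdown replicates 4 and 5 and 380 to 566 in the other knockdown tumors, and their part in the *Irf8* result was not tested.

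Of the components of the ISRE-binding complex described here, *Irf9* passed the test and *Stat2* did not. *Irf9* (chr14:55603571-55610030) ranged from 1980 to 2372 with a median of 2134 in CTL tumors and from 2395 to 3019 with a median of 2581 in knockdown tumors. The groups did not overlap, yet the difference was small (log2 fold change 0.30 ± 0.07 (SE), adjusted p = 0.00238, exact permutation p = 0.00216). Chromosome 14, where *Irf9* lies, had a median log2 fold change of 0.39 over 452 genes, and with chromosome medians removed the *Irf9* value was -0.08 (limma adjusted p = 0.358). *Stat2* (chr10:128270559-128292849) ranged from 2021 to 2701 with a median of 2162 in CTL tumors and from 2079 to 2340.1 with a median of 2241 in knockdown tumors, with overlapping groups (log2 fold change -0.02 ± 0.07 (SE), adjusted p = 0.847, exact permutation p = 0.799). *Irf1* (chr11:53770014-53778374), the early interferon gamma target, ranged from 6872 to 8556 with a median of 7458 in CTL tumors and from 5793 to 8651 with a median of 8005 in knockdown tumors. Its knockdown values spread more widely than the CTL values and the groups overlapped (log2 fold change -0.03 ± 0.10 (SE), adjusted p = 0.841, exact permutation p = 0.786). *Irf2*, *Irf3*, *Irf4* and *Irf5* had log2 fold changes of -0.12, -0.02, -0.14 and 0.11, none past the test.

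The cytoplasmic RNA sensors were higher. *Ifih1* (chr2:62595798-62646255), which encodes MDA5, the sensor of long double-stranded RNA, ranged from 1321 to 1540.1 with a median of 1462 in CTL tumors and from 1976 to 2533 with a median of 2106 in knockdown tumors. The groups were well separated, with every knockdown tumor above the highest CTL tumor (log2 fold change 0.61 ± 0.07 (SE), adjusted p = 1.6e-05, exact permutation p = 0.00216). *Ddx58* (chr4:40203773-40239828), which encodes RIG-I, ranged from 1106 to 1369.8 with a median of 1315 in CTL tumors and from 1417 to 1617 with a median of 1529.7 in knockdown tumors. This difference was smaller but again without overlap (log2 fold change 0.25 ± 0.06 (SE), adjusted p = 0.00472, exact permutation p = 0.00216). *Zbp1*, a sensor of left-handed nucleic acid helices, did not pass the test (log2 fold change 0.22 ± 0.15 (SE), adjusted p = 0.249).

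Of the 8 OAS genes, which make the 2-5A messenger that activates RNase L or are its enzymatically inactive relatives, 6 were higher and none was lower, and their median log2 fold change was 0.71. *Oasl1* (chr5:114923240-114937915), a relative known to restrain *Irf7* translation, ranged from 358 to 647 with a median of 483 in CTL tumors and from 872 to 1608 with a median of 1371 in knockdown tumors. The lowest knockdown tumor exceeded the highest CTL tumor (log2 fold change 1.46 ± 0.16 (SE), adjusted p = 8.51e-06, exact permutation p = 0.00216). *Oas1a* (chr5:120896256-120907521), an active synthetase, ranged from 669 to 937 with a median of 759 in CTL tumors and from 1017 to 1664 with a median of 1468 in knockdown tumors, again without overlap (log2 fold change 0.85 ± 0.12 (SE), adjusted p = 6.64e-05, exact permutation p = 0.00216). *Oas1g* (chr5:120876142-120887613), its near-identical neighbour, ranged from 174 to 259.9 with a median of 207 in CTL tumors and from 293 to 521 with a median of 419 in knockdown tumors. It was separated between groups in the same way (log2 fold change 0.95 ± 0.16 (SE), adjusted p = 0.000258, exact permutation p = 0.00216). Reads shared by such copies are left out when unique hits are counted, so the split between *Oas1a* and *Oas1g* is uncertain. *Oas3*, *Oasl2* and *Oas2* were higher by 0.98, 0.56 and 0.56 on the log2 scale (limma adjusted p = 0.000302, 0.000632 and 0.0113). *Oas1b* (log2 fold change 0.44 ± 0.19 (SE), adjusted p = 0.0824) and *Oas1c* (log2 fold change -0.03 ± 0.20 (SE), adjusted p = 0.921) did not exceed 143 normalized counts in any tumor and did not pass. *Oas1b* passed without CTL replicate 5 (0.56, adjusted p = 0.0291) or without knockdown replicate 6 (0.53, adjusted p = 0.0456).

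Among the other antiviral effectors and the ISG15 system, 8 of 10 genes were higher and none was lower, with a median log2 fold change of 0.64. *Mx1* (chr16:97447035-97462907), a dynamin-like GTPase that traps viral nucleocapsids, showed the largest increase of the 80 genes and ranged from 72.0 to 205 with a median of 157 in CTL tumors and from 579.9 to 1212 with a median of 672 in knockdown tumors. The lowest knockdown tumor was well above the highest CTL tumor, knockdown replicate 6 stood apart at the top, and the mean was 4.97-fold higher (log2 fold change 2.32 ± 0.23 (SE), adjusted p = 3.27e-06, exact permutation p = 0.00216). C57BL6/J mice are known to carry a defective *Mx1* allele, so the transcript level is no measure of working protein. *Rsad2* (chr12:26442746-26456452), which encodes viperin, ranged from 200.1 to 361 with a median of 242 in CTL tumors and from 480 to 624 with a median of 564 in knockdown tumors. The groups did not overlap (log2 fold change 1.10 ± 0.15 (SE), adjusted p = 4.04e-05, exact permutation p = 0.00216). *Cmpk2* (chr12:26469204-26479837), the mitochondrial nucleotide kinase next to *Rsad2*, ranged from 533 to 863 with a median of 649.6 in CTL tumors and from 828 to 1329 with a median of 1130 in knockdown tumors. Only CTL replicate 5 reached into the knockdown range, above knockdown replicates 1 and 3 (log2 fold change 0.68 ± 0.13 (SE), adjusted p = 0.00102, exact permutation p = 0.00649). The ubiquitin-like modifier *Isg15* had means of 753 ± 192 against 1142 ± 288 normalized counts (SD, CTL first; log2 fold change 0.60 ± 0.19, limma adjusted p = 0.0183). *Usp18*, which removes ISG15 from proteins and damps the type I receptor, rose by 0.87 (limma adjusted p = 0.00176). *Mx2* (0.72), the exonuclease gene *Isg20* (0.50) and the apoptosis-linked *Xaf1* (0.36) also rose. *Rtp4* (0.26) and *Bst2* (-0.09), which encodes the virion tether tetherin, did not pass the test (limma adjusted p = 0.109 and 0.477). *Rtp4* passed without knockdown replicate 1 (0.33, adjusted p = 0.0274).

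**Figure D2:**
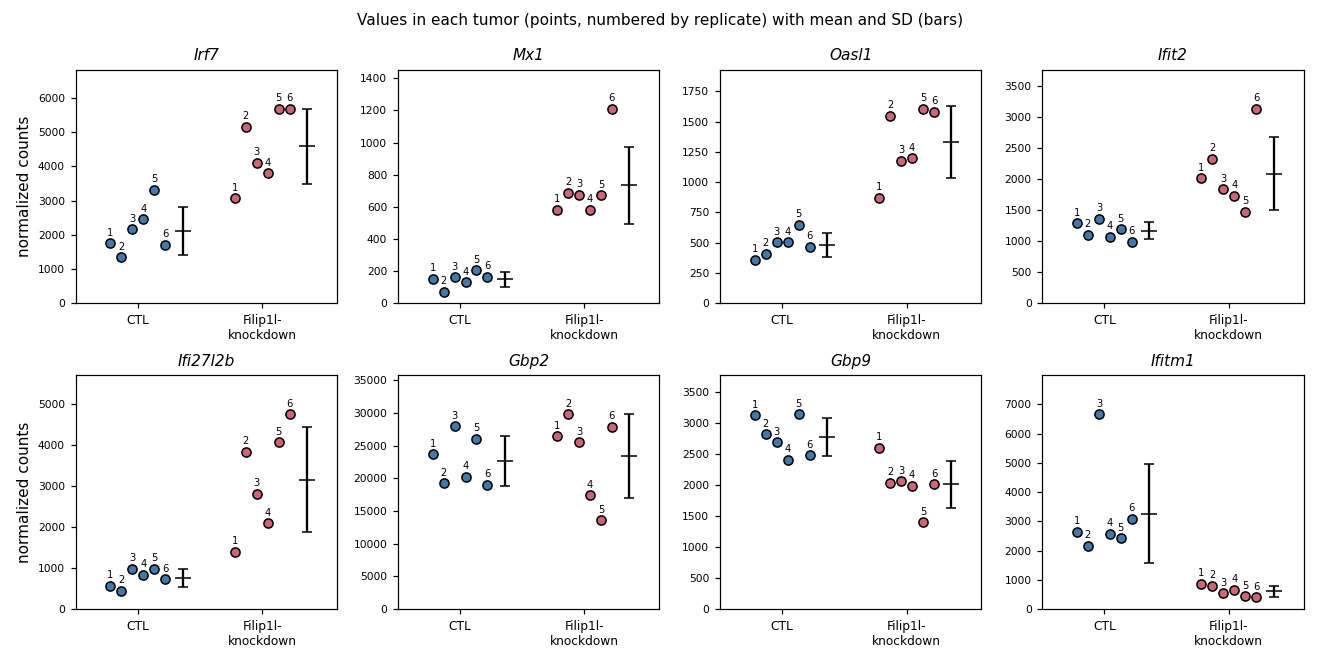
Normalized counts (y axis, from 0) of 8 genes in each CTL (blue) and *Filip1l*-knockdown (red) tumor, numbered by replicate, with mean and SD as bars at the right of each group. *Mx1*, *Oasl1*, *Ifit2* and *Ifi27l2b* do not overlap between groups, *Gbp2* overlaps with knockdown replicates 4 and 5 lowest in their group, and *Ifitm1* falls to 407 to 861 in all knockdown tumors.

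The 6 IFIT genes, whose proteins bind foreign RNA and block its translation, lie within 99.3 kb on chromosome 19 (chr19:34550694-34650009), and 3 of them were higher. *Ifit1bl1* (chr19:34592891-34601956), an *Ifit1* paralog, ranged from 189 to 536 with a median of 322 in CTL tumors and from 692 to 1699.8 with a median of 1043 in knockdown tumors. The groups did not overlap and the mean was 3.26-fold higher (log2 fold change 1.72 ± 0.26 (SE), adjusted p = 0.000113, exact permutation p = 0.00216). *Ifit2* (chr19:34550694-34576419) ranged from 993 to 1358 with a median of 1149 in CTL tumors and from 1473 to 3139 with a median of 1926 in knockdown tumors. Here too the lowest knockdown tumor was above the highest CTL tumor, and knockdown replicate 6 was the highest (log2 fold change 0.80 ± 0.15 (SE), adjusted p = 0.000616, exact permutation p = 0.00216). *Ifit1bl2* was also higher at a low level of 7.72 ± 2.59 against 23.4 ± 11.1 normalized counts (SD, CTL first; log2 fold change 1.35 ± 0.40 (SE), adjusted p = 0.0145). *Ifit1* (0.28), *Ifit3* (0.12) and *Ifit3b* (-0.24), the last pair being near-identical copies, did not pass the test. Chromosome 19 as a whole had a median log2 fold change of -0.35 over 458 genes in these tumors. With chromosome medians removed, *Ifit1* (0.64, limma adjusted p = 0.00147) and *Ifit3* (0.48, adjusted p = 0.0189) passed the test, *Ifit3b* turned to 0.12, and 5 of the 6 genes were higher. *Ifit1* also passed without CTL replicate 5 (0.35, adjusted p = 0.0390).

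The 6 other numbered Ifi genes included some of the largest increases. *Ifi27l2b* (chr12:103450898-103457223), a gene of the ISG12 family of small membrane proteins, ranged from 439 to 986 with a median of 779 in CTL tumors and from 1389.7 to 4743 with a median of 3314 in knockdown tumors. All knockdown tumors were above all CTL tumors, knockdown replicate 1 being the lowest of them, and the mean was 4.19-fold higher (log2 fold change 2.00 ± 0.28 (SE), adjusted p = 6.83e-05, exact permutation p = 0.00216). Its neighbour *Ifi27l2a* (chr12:103442167-103443680) ranged from 62.5 to 133 with a median of 98.3 in CTL tumors and from 163 to 305 with a median of 202 in knockdown tumors, also without overlap (log2 fold change 1.15 ± 0.19 (SE), adjusted p = 0.000265, exact permutation p = 0.00216). The third gene of this cluster of 23.0 kb, *Ifi27*, differed by -0.18 ± 0.09 and did not pass (limma adjusted p = 0.111), though without knockdown replicate 5 it was lower (-0.23, adjusted p = 0.0451). *Ifi30* (chr8:70762774-70766663), the lysosomal thiol reductase of antigen processing, ranged from 1634 to 2755 with a median of 1865 in CTL tumors and from 2493 to 3659 with a median of 3285 in knockdown tumors. Only CTL replicate 3 reached into the knockdown range, above knockdown replicate 4 (log2 fold change 0.71 ± 0.12 (SE), adjusted p = 0.000315, exact permutation p = 0.00433). *Ifi35*, a binding partner of NMI, was higher by 0.37 (limma adjusted p = 0.0219), a call lost without CTL replicate 6 (0.32, adjusted p = 0.0523) or knockdown replicate 6 (0.33, adjusted p = 0.0519). *Ifi44* was not called (log2 fold change 0.26, adjusted p = 0.093) except without CTL replicate 5 (0.36, adjusted p = 0.00850).

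The IFITM genes, several of which encode proteins that hinder the fusion of viruses with host membranes, split. *Ifitm1* (chr7:140967221-140969825) had the largest decrease of the 80 genes and ranged from 2158 to 6659.9 with a median of 2614 in CTL tumors and from 407 to 861 with a median of 594 in knockdown tumors. The highest knockdown tumor was below the lowest CTL tumor and CTL replicate 3 stood far above the rest (log2 fold change -2.34 ± 0.26 (SE), adjusted p = 7.44e-06, exact permutation p = 0.00216). Without that tumor the log2 fold change was -2.11 ± 0.18 (SE). *Ifitm10* (chr7:142325837-142373753), a distant relative, ranged from 69.0 to 92.6 with a median of 82.2 in CTL tumors and from 18.8 to 56.5 with a median of 32.0 in knockdown tumors, lower in every knockdown tumor (log2 fold change -1.26 ± 0.23 (SE), adjusted p = 0.000504, exact permutation p = 0.00216). The neighbours of *Ifitm1* were the abundant *Ifitm2* (6421 ± 1085 against 6187 ± 724 normalized counts, SD, CTL first; log2 fold change -0.05 ± 0.10, limma adjusted p = 0.762) and *Ifitm3* (5017 ± 2244 against 5497 ± 738; 0.21 ± 0.20, adjusted p = 0.426), and neither passed the test. *Ifitm3* did without CTL replicate 3 (0.41, adjusted p = 0.00992). *Ifitm6*, a gene of myeloid cells, had means of 6.54 ± 3.26 against 15.7 ± 6.07 normalized counts and was called higher (log2 fold change 1.18 ± 0.40 (SE), adjusted p = 0.0292). It no longer passed without CTL replicate 2 or 4 or knockdown replicate 1, 2, 3 or 6, each left out singly. Of the 6 neutrophil markers, *S100a8*, *S100a9*, *Cxcr2*, *Csf3r* and *Retnlg* were 2.52-fold to 4.81-fold higher in knockdown tumors with no overlap between groups. The most abundant, *Mmp9*, did not pass the test (1076 ± 302 against 765 ± 537 normalized counts, SD, CTL first), and the sum of all 6 overlapped (934 to 1774 against 1076 to 2907). Their part in the *Ifitm6* result was not tested.

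The 11 HIN-200 genes, whose proteins bind DNA in nucleus or cytoplasm, lie in a single cluster on chromosome 1 (chr1:173468485-174031810). Of them, 3 were higher, all at low levels, a share of 27.3% that is near the 21.1% of all genes. *Ifi213* (chr1:173566283-173599274) ranged from 19.9 to 55.4 with a median of 38.0 in CTL tumors and from 59.7 to 169 with a median of 105 in knockdown tumors. The groups did not overlap, with knockdown replicates 4 and 5 lowest in their group (log2 fold change 1.41 ± 0.30 (SE), adjusted p = 0.00197, exact permutation p = 0.00216). *Ifi206* (chr1:173468485-173491041) ranged from 34.0 to 80.7 with a median of 45.9 in CTL tumors and from 67.6 to 145 with a median of 108 in knockdown tumors, and only knockdown replicate 4 fell within the CTL range (log2 fold change 1.05 ± 0.25 (SE), adjusted p = 0.0037, exact permutation p = 0.00649). *Ifi208* (10.7 ± 7.19 against 29.5 ± 12.4 normalized counts, SD, CTL first; log2 fold change 1.53 ± 0.51 (SE), adjusted p = 0.0259) was not called without knockdown replicate 3 (1.41, adjusted p = 0.0561) or 6 (1.39, adjusted p = 0.0582). The 4 most abundant members of the cluster per kilobase, *Ifi211*, *Ifi204*, *Ifi203* and *Ifi207*, had log2 fold changes of 0.01, -0.04, 0.18 and 0.09, and none passed the test. *Ifi203-ps* (log2 fold change -0.66 ± 0.26 (SE), adjusted p = 0.0548) and *Ifi209* (log2 fold change 0.46 ± 0.19 (SE), adjusted p = 0.0684) lay just outside the threshold in opposite directions. *Ifi203-ps* was lower without CTL replicate 3 (-0.75, adjusted p = 0.0383) or knockdown replicate 3 (-0.84, adjusted p = 0.0102). *Ifi209* was higher without knockdown replicate 4 (0.54, adjusted p = 0.0423) or 5 (0.54, adjusted p = 0.0443).

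The guanylate-binding proteins and immunity-related GTPases, which are strongly induced by interferon gamma and attack pathogen vacuoles, gave a different picture. Of 16 genes, 0 were higher by limma or by edgeR, or by limma at an unadjusted p under 0.05, and *Gbp9* alone was lower by limma. *Gbp9* (chr5:105077630-105139539) ranged from 2403 to 3141 with a median of 2754 in CTL tumors and from 1397 to 2598 with a median of 2024 in knockdown tumors. All knockdown tumors other than replicate 1 were below all CTL tumors (log2 fold change -0.48 ± 0.12 (SE), adjusted p = 0.00533, exact permutation p = 0.00649). *Gbp2* (chr3:142620602-142638008), the most abundant of the family, ranged from 18964 to 27922 with a median of 21925 in CTL tumors and from 13569.9 to 29758 with a median of 25952 in knockdown tumors. The CTL range lay within the knockdown range (log2 fold change 0.01 ± 0.18 (SE), adjusted p = 0.973). *Iigp1*, an effector against vacuolar parasites, ranged from 18326 to 24955 with a median of 21186 in CTL tumors and from 10387 to 24225 with a median of 21686 in knockdown tumors (log2 fold change -0.19 ± 0.18 (SE), adjusted p = 0.448). *Igtp* (0.25), *Irgm1* (-0.16), *Irgm2* (-0.31) and *Ifi47* (-0.04) did not pass either, although *Irgm2* was lower without knockdown replicate 2 (-0.37, adjusted p = 0.0444). On the scale of normalized counts per kilobase of exon, averaged over all tumors, *Ifitm2* (9624), *Gbp2* (9156), *Ifitm3* (7754), *Igtp* (4384), *Bst2* (3998) and *Iigp1* (3492) had the highest levels of the 80 genes, and none of these 6 was called. Called genes were spread widely on this scale. Among them, *Ifi30* (2645, higher), *Ifi27l2b* (1786, higher) and *Ifitm1* (1770, lower) were abundant, whereas *Mx1* was at 116.5 and *Rsad2* at 94.07.

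Levels of these GTPase families varied within the knockdown group. In all 16 genes, knockdown replicates 4 and 5 were the 2 lowest knockdown tumors, and in 11 of 16 both were below every CTL tumor. Over all genes, these 2 tumors were the 2 lowest of the knockdown group in 8.29% and both below every CTL tumor in 19.5%. Replicates 4 and 5 were also the 2 lowest knockdown tumors in 9 of 11 HIN-200 genes and 5 of 11 STAT and IRF factors. Both were below every CTL tumor in only 1 of these 11 HIN-200 genes and 2 of these 11 factors. They were the 2 lowest in 1 of 3 sensors, 1 of 6 IFIT genes and 1 of 5 IFITM genes. This was so in 0 of 8 OAS genes, 0 of 10 other antiviral effectors and 0 of 6 other Ifi genes. The family median of the log2 value minus the CTL mean was -0.37 and -0.72 in knockdown replicates 4 and 5 for the guanylate-binding proteins and 0.24 to 0.41 in the other 4 knockdown tumors. For the OAS genes the median was 0.65 and 1.03 in replicates 4 and 5 and 0.44 to 0.93 in the others. The antiviral families varied too, with another tumor low. Knockdown replicate 1 was the lowest knockdown tumor in 6 of 8 OAS genes, 6 of 10 other antiviral effectors, 4 of 6 IFIT genes and 4 of 6 other Ifi genes. It also had the lowest summed epithelial markers of the knockdown group (189996, against 261184 to 354598 in the other knockdown tumors). In CTL tumors this epithelial sum was 135463 to 176172. The part of epithelial cells in the antiviral levels was not tested. The summed T and NK cell markers were 1224 and 1376 in replicates 4 and 5, 2147 to 2557 in the other knockdown tumors and 1234 to 3414 in CTL tumors. The summed dendritic cell markers, given above with *Irf8*, and general leukocyte markers (5412 and 5744, against 6242 to 11235) were also lowest in replicates 4 and 5 of the knockdown group. In CTL tumors the leukocyte sum was 5594 to 7633. Macrophage sums divided otherwise, with replicates 4 and 6 lowest (14659 and 15286) and replicate 5 at 17131. The neutrophil sum was lowest in replicate 4 (1076), and replicate 5 (1665) lay within the other knockdown tumors (1565 to 2907). The part of these cells in the GTPase levels was not tested. The division of replicates 4 and 5 from the other knockdown tumors was noticed after the values were seen and is given as a description, with no test. Without knockdown replicate 5, *Gbp5* (0.54, limma adjusted p = 0.0216), *Gbp10* (0.58, adjusted p = 0.0340) and *Gbp7* (0.24, adjusted p = 0.0400) were higher.

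**Figure D3:**
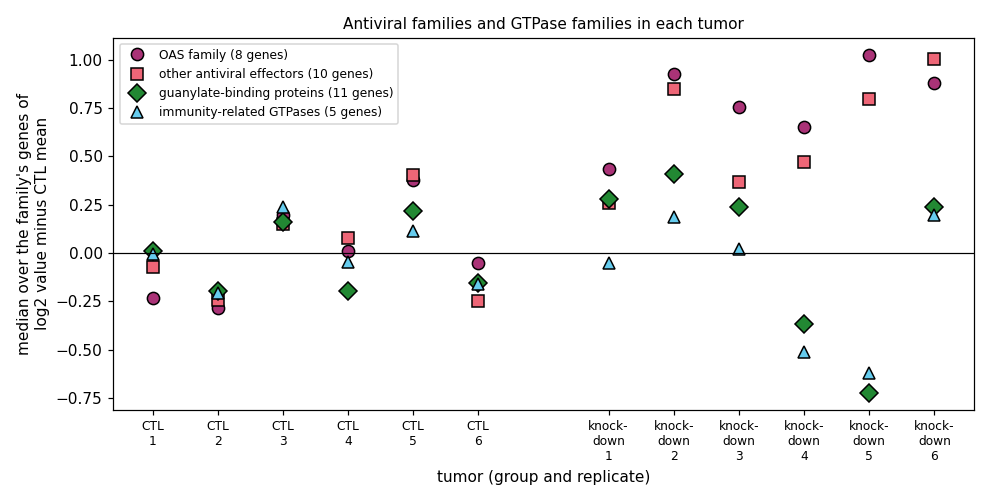
Median over each family's genes of the log2 value minus the CTL mean (y axis) in each of the 12 tumors (x axis). The OAS genes and other antiviral effectors are above 0 in all 6 knockdown tumors. CTL replicate 5 is the highest CTL tumor for the OAS genes (0.38) and the other antiviral effectors (0.40). For the other antiviral effectors it lies above knockdown replicates 1 (0.26) and 3 (0.37). The guanylate-binding proteins and immunity-related GTPases are lowest in knockdown replicates 4 (-0.37 and -0.51) and 5 (-0.72 and -0.62).

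**Figure D4:**
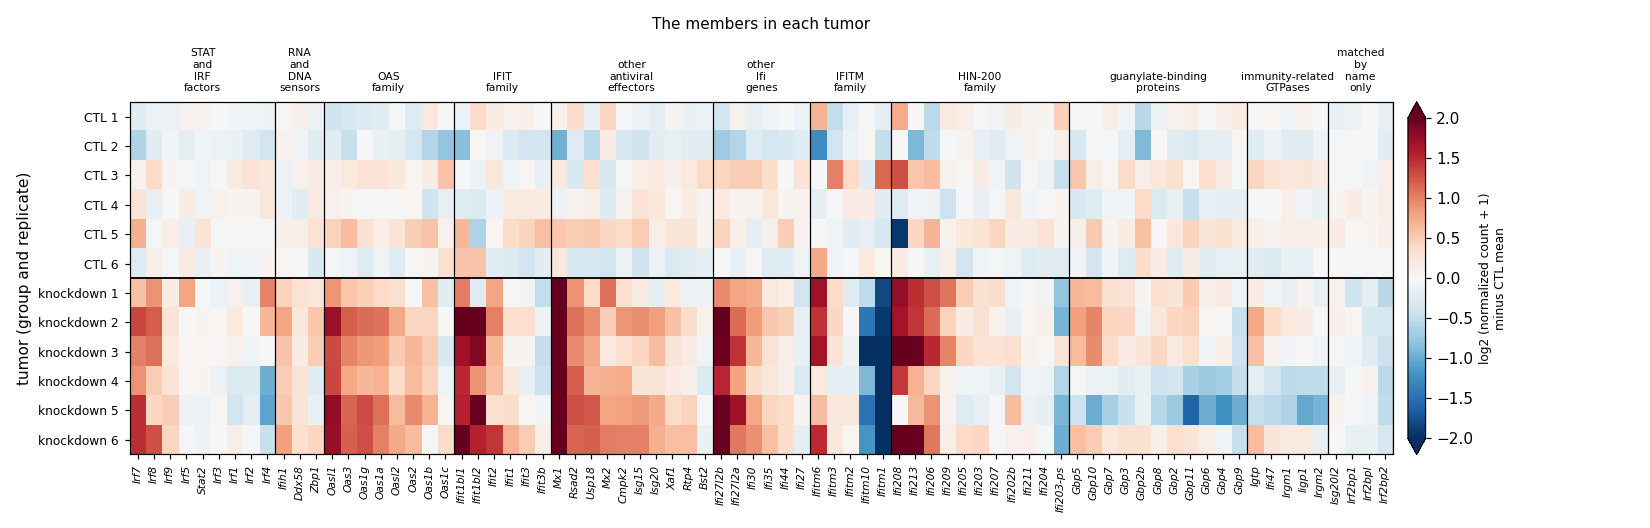
Log2 (normalized count + 1) minus the CTL mean (color, from -2 to 2) of the same 78 genes (x axis, by family) in each of the 12 tumors (y axis). The OAS and other antiviral genes are mostly red in all knockdown tumors, while the GTPase genes on the right are blue in knockdown replicates 4 and 5.

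*Ifng*, the 1 of 21 listed interferon genes analysed here, ranged from 58.7 to 106 with a median of 89.7 in CTL tumors and from 48.4 to 121 with a median of 109.9 in knockdown tumors. Knockdown replicates 4 and 5 were again the lowest knockdown tumors, at 76.4 and 48.4, against 107 to 121 in the other 4, and the difference did not pass the test (log2 fold change 0.12 ± 0.23 (SE), adjusted p = 0.714, exact permutation p = 0.621). The receptors and kinases differed by member. *Ifngr2* (0.65, limma adjusted p = 6.34e-07) and *Ifngr1* (0.32, adjusted p = 0.000284), which together form the interferon gamma receptor, and *Tyk2* (0.33, adjusted p = 0.0136) were higher. *Jak2* (-0.54, adjusted p = 8.39e-05) was lower, and *Ifnar1* (-0.10), *Ifnar2* (0.10) and *Jak1* (0.05) were not called. Altogether 4 of 9 receptor and kinase genes were higher (44.4%, against 21.1% of all genes) and 1 lower (11.1%, against 20.7%). *Jak2* lies on chromosome 19, whose median shift is given above. Of 7 feedback inhibitors, 1 was higher (*Ptpn2*, 0.20) and 3 were lower (*Socs3* -0.31, *Ptpn11* -0.28 and *Pias1* -0.24), and *Socs1* was not called (0.18).

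Genes of nucleic acid sensing and other known interferon targets, which the naming rule did not take in, were counted for comparison. Of 13 sensing genes, 7 were higher (53.8%, against 21.1% of all genes) and none was lower. They were led by *Dhx58* (1.05, limma adjusted p = 0.000104), the RIG-I relative LGP2, and the kinase gene *Ikbke* (0.83, adjusted p = 1.31e-06). *Mavs* (-0.09), *Tbk1* (0.03) and *Cgas* (-0.08) were not called. Of 39 other targets, 18 were higher (46.2%, against 21.1% of all genes) and 3 lower (7.69%, against 20.7%). Their median log2 fold change was 0.29. The antiviral helicase gene *Ddx60* (1.22), *Phf11d* (1.28) and the chemokine gene *Cxcl9* (1.39) were higher by over 2-fold. *Phf11d* lies on chromosome 14, where the median log2 fold change was 0.39, and *Ddx60* on chromosome 8, where it was -0.19. *Eif2ak2*, which encodes PKR, rose by 0.38, as did the peptide transporter genes *Tap1* (0.33) and *Tap2* (0.47) and the immunoproteasome genes *Psmb8* (0.41) and *Psmb9* (0.47). *Psmb10* (0.27), *B2m* (0.29), *Ciita* (0.10) and *Nlrc5* (-0.38), which also serve antigen presentation, did not pass the test. The 3 lower genes were *Tgtp1* (-0.53) and *Tgtp2* (-0.77), near-identical immunity-related GTPases, and *Trim21* (-0.31).

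The genes matched by letters only encode IRF2-binding proteins and an ISG20-like nuclease and are not known interferon targets by that name. *Irf2bp2* (chr8:126588296-126593986), a corepressor gene, ranged from 3806 to 4851 with a median of 4576 in CTL tumors and from 3009 to 3501 with a median of 3189 in knockdown tumors. It was lower in every knockdown tumor than in any CTL tumor (log2 fold change -0.45 ± 0.07 (SE), adjusted p = 0.000193, exact permutation p = 0.00216). It lies on chromosome 8, where the median log2 fold change was -0.19 over 702 genes. *Irf2bp1* (-0.11), *Irf2bpl* (-0.15) and *Isg20l2* (0.01) did not pass the test, *Irf2bpl* being lower without knockdown replicate 4 (-0.19, adjusted p = 0.0112). Several of the 80 genes share exon sequence with other annotated genes, among them *Ifitm2* (40.9% of its exon bases), *Gbp10* (46.3%) and *Gbp6* (29.0%), so their counts may lack or include reads of the overlapping gene. Opposite-strand overlap concerns *Irf2bp2* (20.5%), *Ifi35* (16.8%) and *Irf5* (14.1%), where reads cannot be assigned without strand information.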

How the data were processed

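Total RNA from 12 snap-frozen tumors was enriched for poly(A) RNA and sequenced in paired ends. The authors trimmed reads with Trimmomatic 0.36, aligned them to the mouse genome (mm10) with STAR 2.5.2b, took unique gene hits with featureCounts (Subread 1.5.2) and divided them by DESeq2 size factors. The deposited values are these normalized counts (a signal scale, not raw counts). Strandedness and annotation version are not given in the sources used here. Whole reads were recovered in all 12 tumors. Gene names came from Ensembl identifiers (15655 of 15687 matched), and gene coordinates from GENCODE on GRCm38.

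All 15687 genes passed a filter on the mean (5 or more) and were tested with limma 3.58.1 (R 4.3.3) with trend on log2 (normalized count + 1), with Benjamini-Hochberg adjustment over all genes and an adjusted p threshold of 0.05. The exact permutation test was two-sided over 924 arrangements of the tumors, and the smallest p it allows is 0.00216. The pseudocount makes fold changes of low genes smaller. Members and lists were chosen with earlier results of these data known. Values per tumor were given for Stat2, Irf1, Irf7, Irf9 and, in each family, up to 3 called genes of smallest p whose mean reached 50, and for genes added in the text. Counts and medians cover all 80 genes, and the values of 2 of them are not reported here. Alternatives were other pseudocounts, filters and scalings, limma without trend, a replicate block, chromosome medians removed, each tumor left out and edgeR 4.0.16 on the recovered reads, the last chosen after seeing the data. The fits were tested on simulated data.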

Additional observations from a re-analysis of the deposited data

Results flagged for a closer look

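Among 54 sets of 6 tumor values tested for 1 value far from the others (27 per group), 3 had one, where chance gives about 1 in 20. CTL replicate 3 was high for *Ifitm1*, at 6660 normalized counts with the next CTL tumor at 3090. The same tumor was high for *Ifi30*, at 2755 with the next at 2042. Knockdown replicate 6 was high for *Mx1*, at 1212 with the next knockdown tumor at 689. Without the tumor named, the log2 fold changes were -2.11 for *Ifitm1*, 0.81 for *Ifi30* and 2.17 for *Mx1*.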

How the results depend on the processing

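Of the 35 called genes, 31 kept call and direction in all 10 alternatives that used every tumor, 32 in all 12 fits that each left out 1 tumor, and 30 in both. A further 2 (*Ifit1bl2* and *Ifitm6*) were not tested under the filter at a mean of 20 and kept their calls in the other 9 alternatives. Among the 10 alternatives, the fit without a filter on low values could not differ from the main fit. The lowest gene mean was 9.28 normalized counts, so the main filter removed no gene. With each tumor left out in turn, 29 to 36 genes were higher, 4 to 5 lower, 9 to 14 higher by over 2-fold and 2 lower by over 2-fold, and the median log2 fold change was 0.18 to 0.29. Rescaling to the same total gave 8 lower genes instead of 4, as the median of all genes moved to -0.03. Removing chromosome medians turned *Irf9* to -0.083, *Irf2* to 0.080, *Ifit3b* to 0.12, *Bst2* to 0.11, *Gbp2* to -0.018 and *Isg20l2* to -0.018. Other genes whose sign turned had values near 0. These were *Ifi211* (-0.00078), *Gbp2* (-0.0019) and *Isg20l2* (-0.0022) at the same 75th percentile, *Ifi211* (-0.031), *Gbp2b* (-0.00082), *Gbp8* (-0.028), *Gbp2* (-0.032) and *Isg20l2* (-0.032) at the same total, and *Ifi211* (-0.0039), *Irf4* (0.037), *Gbp11* (0.014), *Gbp2b* (-0.047) and *Isg20l2* (-0.0029) in edgeR. The cause was not tested. Leaving out single tumors gave both signs for *Gbp2b* (-0.14 to 0.16), *Gbp8* (-0.067 to 0.13), *Gbp2* (-0.070 to 0.16), *Gbp11* (-0.24 to 0.18), *Isg20l2* (-0.022 to 0.043), *Ifi202b* (-0.042 to 0.16), *Ifi204* (-0.087 to 0.011), *Ifi211* (-0.042 to 0.042), *Ifi47* (-0.12 to 0.056), *Ifitm2* (-0.099 to 0.032), *Oas1c* (-0.19 to 0.084), *Irf1* (-0.076 to 0.040), *Irf4* (-0.36 to 0.044), *Irf5* (-0.024 to 0.16) and *Stat2* (-0.050 to 0.033).

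Replicate numbers are shared between groups, but same-numbered tumors did not deviate together (correlations -0.27 to 0.10). With the replicate number as a block, 31 genes were higher and 4 lower, *Ifi35* lost its call (0.37, adjusted p = 0.0560) and *Ifi209* gained one (0.46, adjusted p = 0.0408). *Ifi203-ps* passed under the same 75th percentile, the same total and limma without trend (-0.67, -0.70 and -0.66). With 17834745 to 32419578 reads per tumor, counting error weighs most on the called genes with the lowest means, *Ifitm6*, *Ifit1bl2* and *Ifi208*, and depth itself was not varied.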
